A study of Mus musculus with 6 samples.

Results

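Hedgehog pathway genes were examined in cultured mouse osteoblasts with and without the retinoblastoma protein pRb, a cell cycle repressor. The genes were Ptch1, Smo, Gli1, Gli2, Gli3, Hhip, Sufu, Gas1 and Ihh, chosen by name and represented by every probe set of the array whose single annotated symbol was one of these 9 genes. This gave 23 of 45037 probe sets and 9 of 18193 genes. The cells were MC3T3 osteoblasts, calvarial cells of embryonic day 18.5 mice made immortal by serial passage every 3 days, and RNA of 3 pRb-expressing cultures (labelled wild type) and 3 pRb-deficient cultures (labelled Rb knockout) was hybridized to 1 Affymetrix Mouse Genome array each. The study's mice carried a floxed RB1 gene (flox19) in a C57BL/6 background and a Cre transgene under a Col1a1 promoter, which is active in cells of the osteoblast lineage. The study names a 2.3-Col1a1-Cre and a 3.6-Col1a1-Cre line, and the F2 offspring were used. The sources used here do not give which of the study's Col1a1-Cre lines these cultures came from, whether the control cells carried Cre, or how many animals or cell lines the 3 cultures of a group represent. An effect of pRb status and one of the line a culture came from cannot be told apart in the 2 groups. The labels call the 3 cultures of a group biological replicates, without saying whether they came from separate animals or lines, and the p-values cover only the scatter among them.

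Hedgehog signaling works by release from inhibition. Without ligand, the receptor Patched1 keeps the membrane protein Smoothened inactive, and the GLI transcription factors are held by SUFU and partly processed to repressors. When a ligand such as Indian hedgehog binds Patched1 together with a coreceptor such as GAS1, Smoothened moves into the primary cilium and GLI activators reach the nucleus, where they switch on target genes that include Gli1, Ptch1 and Hhip themselves. In bones that form through cartilage, Indian hedgehog made by cartilage cells acts on the perichondrium and is required for osteoblasts to form there.

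Rb1 itself read 1123.7, 1118.6 and 1105.9 in pRb-expressing cultures 1, 2 and 3 and 143.1, 127.1 and 123.5 in pRb-deficient cultures 1, 2 and 3, in MAS5 signal units, the array's brightness on a linear scale. The fitted log2 fold change was −3.09 ± 0.10 (SE, n = 3 and 3, limma adjusted p = 4.94e-06), and Rb1 was lower in every culture labelled knockout. Where this probe set lies with respect to the floxed part of the gene was not looked up, so the value is no check of the deletion itself. The osteoblast markers were lower in the pRb-deficient cultures in all 7 of the 7 measured, with a median log2 fold change of −3.88. Their summed signal was 44537 to 50812 in pRb-expressing and 17941 to 27912 in pRb-deficient cultures, and the mineralizing-cell genes Ibsp and Dmp1 were at or below a signal of 32 on every pRb-deficient array, the level below which signals were set equal. Over all genes tested 41.9% were called, which is the share to set the other marker lists against. Of the chondrocyte markers 1 of 10 was higher and 5 were lower, with Col10a1 at or below 32 on every array and summed signals of 3738 to 4575 and 2046 to 2965. Of the smooth muscle and pericyte markers 3 of 6 were higher and 0 lower, but their summed signals overlapped, at 18811 to 21284 and 19885 to 23499. Cnn1 rose from a mean of 12.1 to 2495, whereas Acta2, the brightest of that list, had a log2 fold change of −0.24 that did not pass, and Myh11 was at or below 32 on every array. Of the neural and glial markers 1 of 5 was higher and 3 were lower, and of the hematopoietic ones 1 of 5 was higher and 1 lower, the latter being Lyz2, from 1612 to 113. Among the adipocyte markers 1 of 5 was lower, and 0 of 5 endothelial and 0 of 5 skeletal muscle markers passed in either direction. Their part in the changes of the Hedgehog genes was not tested, and in whole cultures fewer cells of a type and less RNA per cell cannot be told apart.

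The promoter windows of Smo, Gas1 and Gli2 are shown because these genes moved in opposite directions. The windows are the 250 bases before the RefSeq start on GRCm38.p6, read 5′ to 3′ on the gene's strand, with GC boxes and CCAAT boxes in capitals. They lie at chr6:29735247-29735496 on the plus strand, chr13:60177536-60177785 on the minus strand and chr1:119053620-119053869 on the minus strand.
Smo: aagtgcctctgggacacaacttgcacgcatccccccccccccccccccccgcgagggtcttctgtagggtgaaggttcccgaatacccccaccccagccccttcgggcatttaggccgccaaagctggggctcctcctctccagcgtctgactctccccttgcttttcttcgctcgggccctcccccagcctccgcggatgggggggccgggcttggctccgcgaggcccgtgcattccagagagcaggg
Gas1: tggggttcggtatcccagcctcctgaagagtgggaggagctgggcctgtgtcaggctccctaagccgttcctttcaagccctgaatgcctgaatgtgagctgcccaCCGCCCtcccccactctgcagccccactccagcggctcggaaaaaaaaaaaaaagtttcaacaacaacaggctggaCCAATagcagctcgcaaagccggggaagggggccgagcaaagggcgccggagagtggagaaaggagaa
Gli2: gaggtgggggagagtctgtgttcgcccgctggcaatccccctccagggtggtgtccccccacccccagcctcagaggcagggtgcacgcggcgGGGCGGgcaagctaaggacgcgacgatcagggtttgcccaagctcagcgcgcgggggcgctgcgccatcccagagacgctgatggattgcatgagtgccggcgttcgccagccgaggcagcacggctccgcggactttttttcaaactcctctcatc
Motifs were searched on both strands in the windows of the 8 members that the RefSeq table listed (Gli1 was not among them) and in all 32851 windows of the table, and no match overlapped a match to another motif in the 3 windows shown. The GLI site GACCACCCA was present in 0 of the 8 members' windows and in 0.225% of all windows. The E2F sites TTTCGCGC and TTTGGCGC, the kind of element that pRb acts on through E2F proteins, were present in 0 of 8 and in 0.654%. The GC box GGGCGG was present in 7 of 8 against 32.7% of all windows, Smo being the exception, and the CCAAT box CCAAT in 2 of 8, Sufu and Gas1, against 33.8%. The members' windows held 54.0% to 78.4% G and C, against a median of 52.4% over all windows, so GC boxes were counted in windows richer in G and C. A match here is a match of letters and not a measured binding site.

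By the brightest probe set of each gene, 4 of the 9 genes passed an adjusted p of 0.05 (44.4%), against 41.9% of the 16308 genes tested, so the share was close to that of the whole array. Of these, 1 was higher in the pRb-deficient cultures, Gli2, where 18.5% of all genes tested were higher, and 3 were lower, Smo, Gas1 and Sufu, where 23.4% of all genes were lower. The median log2 fold change was −0.35 over the 9 genes and −0.09 over all genes tested. Counted by probe set, 19 of the 23 were above 32 on at least 1 array and were tested, and 7 of these passed (36.8%, against 35.0% of all probe sets tested), 2 higher and 5 lower. The 3 pRb-expressing values did not overlap the 3 pRb-deficient values in 11 of the 19, where 48.0% of all probe sets tested did not overlap. The study's methods name a Wilcoxon test, which with 3 against 3 cultures cannot give a two-sided exact p below 0.10, and 0 genes passed with it.

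**Figure D1:**
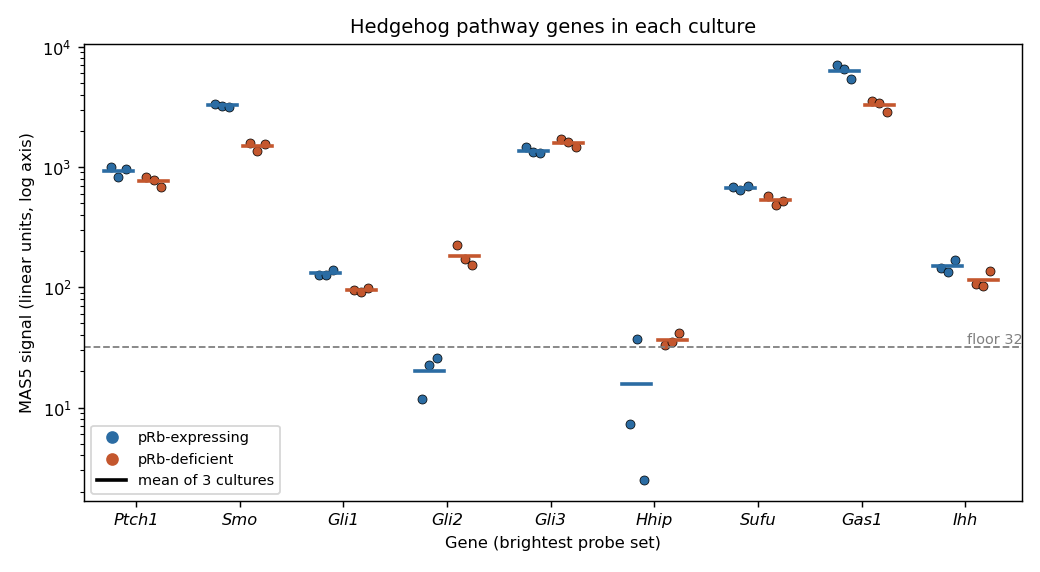
MAS5 signal of the brightest probe set of each of the 9 Hedgehog genes, 1 point per culture on a log axis, with a bar at the mean of 3 cultures and a dashed line at the floor of 32. Smo and Gas1 are lower and Gli2 is higher in every pRb-deficient culture, while the Hhip and Ihh values of the groups overlap.

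Of the ligands, Indian hedgehog was the member of the set. Ihh read 145.6, 134.3 and 167.1 in the pRb-expressing and 107.4, 102.0 and 136.4 in the pRb-deficient cultures. The 2 groups overlapped, since pRb-deficient culture 3 was above pRb-expressing culture 2, and the log2 fold change of −0.38 (95% interval −0.85 to 0.09) did not pass the test (limma adjusted p = 0.199). Once the median change of the genes of its chromosome was taken off, the value was 0.13 (adjusted p = 0.655).

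Patched1, the receptor and also a target of the pathway, had a log2 fold change of −0.29 ± 0.11 (SE, 95% interval −0.55 to −0.03). It did not pass the test across all probe sets (limma adjusted p = 0.0838). Its brightest probe set read 990.4, 827.5 and 966.6 in the pRb-expressing and 822.3, 775.8 and 682.1 in the pRb-deficient cultures, with means of 928 ± 88.0 and 760 ± 71.4 (SD, n = 3 each). The groups did not overlap, but the highest pRb-deficient value lay 5.2 units under the lowest pRb-expressing one. The other probe sets of Ptch1 read between 10.0 and 57.6 and gave log2 fold changes of −0.29 (1439663_at) and 0.25 (1450824_at), neither past the test. With chromosome medians taken off, Ptch1 passed at −0.62 (adjusted p = 0.00574).

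Smoothened, the membrane protein that passes the signal on, fell to less than 50% of its level on both probe sets with signal, which are annotated to the same source sequence and are not separate views of the gene. The brightest, 1427049_s_at, read 3350.4, 3214.3 and 3178.8 in the pRb-expressing and 1593.5, 1357.1 and 1554.2 in the pRb-deficient cultures. The groups were 1585.3 units apart at their nearest values, and the SD within a group was 90.6 and 127. The log2 fold change was −1.12 ± 0.08 (SE, 95% interval −1.30 to −0.93, adjusted p = 8.26e-05), 2.17-fold lower on geometric means. The second probe set, 1427048_at, went from 2485 ± 135 to 1166 ± 84.9 (SD, n = 3 each), a log2 fold change of −1.09 (adjusted p = 9.37e-05). Another stayed between 1.2 and 9.2 on all arrays and was not tested. Smo lies on chromosome 6, where the median gene also fell, by 0.58 on the log2 scale, and with that taken off its change was −0.53 (adjusted p = 0.00247).

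GAS1, a coreceptor that presents ligand to Patched1 and was first known as a protein of growth arrest, fell as well. Gas1 read 7073.9, 6480.7 and 5408.6 in the pRb-expressing and 3550.3, 3375.2 and 2846.4 in the pRb-deficient cultures. The lowest pRb-expressing culture was above the highest pRb-deficient one. The means were 6321 ± 844 and 3257 ± 366 (SD, n = 3 each), and the log2 fold change was −0.95 ± 0.13 (SE, 95% interval −1.25 to −0.66, adjusted p = 0.00118), 1.94-fold lower. The second bright probe set, 1448494_at, gave −0.91 (adjusted p = 0.000837), from 4751 ± 639 to 2520 ± 170. The dim one, 1456322_at, read 20.1 to 83.6 and its log2 fold change was 0.01 (adjusted p = 0.989). Gas1 lies on chromosome 13, where the median gene was higher by 0.33, so against its chromosome the change was −1.28.

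HHIP, a membrane protein that binds and holds back ligand, was dim throughout. Hhip read 7.3, 37.2 and 2.5 in the pRb-expressing and 32.9, 35.1 and 42.0 in the pRb-deficient cultures on 1421426_at. The groups overlapped, and the log2 fold change of 0.12 (95% interval −0.21 to 0.45) did not pass (adjusted p = 0.573). The remaining 3 probe sets read 2.8 to 17.3 and were not tested, so a difference in Hhip was not detectable at this signal.

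SUFU, which binds GLI proteins and restrains them, fell slightly. Sufu read 679.8, 640.7 and 689.8 in the pRb-expressing and 579.2, 483.4 and 520.6 in the pRb-deficient cultures, with no overlap. The log2 fold change was −0.35 ± 0.10 (SE, 95% interval −0.58 to −0.12, adjusted p = 0.0298). This call did not hold in 5 of the 6 fits that left out 1 culture, where the values ran from −0.42 to −0.29 over all 6. Only the fit without pRb-deficient culture 1 kept it (adjusted p = 0.0133), the other adjusted p-values being 0.0567 to 0.103. The other probe sets of Sufu gave −0.15 on 1431713_at (adjusted p = 0.451) and 0.20 on 1420848_at (adjusted p = 0.610), and the mean of all its probe sets gave −0.10 (adjusted p = 0.577).

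The GLI transcription factors carry the signal into the nucleus. Gli1, an activator and the usual readout of pathway activity, had a log2 fold change of −0.46 ± 0.17 (SE, 95% interval −0.86 to −0.06, adjusted p = 0.0747) and did not pass. Its single probe set read 127.5, 126.9 and 138.7 in the pRb-expressing and 94.1, 92.2 and 99.2 in the pRb-deficient cultures, without overlap and with a small spread (SD 6.65 and 3.62). The log2 fold change of Gli1 was negative under each of the other settings tried, and it passed under 6 of them. Among them was a fit without an intensity trend (limma adjusted p = 0.0123). Another was a floor of 100, at −0.39 (limma adjusted p = 0.00275). That floor set every pRb-deficient value to 100 and removed the scatter of that group, so this p is not read as support. At that floor 51.8% of all genes passed. 

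Gli2, the main activator at the start of the response, moved the other way, and the size of its change depended on the floor. On its brightest probe set, 1459211_at, it read 11.9, 22.7 and 25.7 in the pRb-expressing and 226.2, 171.8 and 153.0 in the pRb-deficient cultures. All pRb-expressing values were under the floor of 32, and all pRb-deficient ones were far above it. The level was at least 5.66-fold higher in pRb-deficient cultures, as a bound against that floor per array, with a fitted log2 fold change of 2.50 ± 0.20 (SE, adjusted p = 0.000144). With a floor of 100 the fitted value was 0.86 (adjusted p = 0.00336), smaller in size than the falls of Smo and Gas1, and without a floor it was 3.25 (adjusted p = 0.000139). At floors of 32 and 100 every pRb-expressing value was set equal, which removed the scatter of that group. The SE and p-values of those fits are therefore not read as support. This probe set also entered the test only through its pRb-deficient values. The second probe set, 1446086_s_at, read 4.0, 49.6 and 6.0 in the pRb-expressing and 95.8, 92.4 and 102.3 in the pRb-deficient cultures and gave a log2 fold change of 1.39 (adjusted p = 0.00261). It was annotated to the same source sequence as the first and is no separate view of the gene, and with a floor of 100 its call was lost, at 0.01 (adjusted p = 0.867).

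Gli3, which acts mainly as a repressor, was slightly brighter in the pRb-deficient cultures without passing the test. It read 1461.5, 1323.5 and 1301.8 in the pRb-expressing and 1708.5, 1604.6 and 1473.6 in the pRb-deficient cultures. The groups were set apart by 12.1 units, and the log2 fold change was 0.23 (95% interval 0.03 to 0.43, adjusted p = 0.0793). It passed without pRb-deficient culture 3, at 0.28 (adjusted p = 0.0381). Taking off the chromosome median turned the direction, to −0.10 (adjusted p = 0.407). The other probe sets gave 0.20 on 1455154_at (adjusted p = 0.204) and −0.17 on 1450525_at (adjusted p = 0.600).

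**Figure D2:**
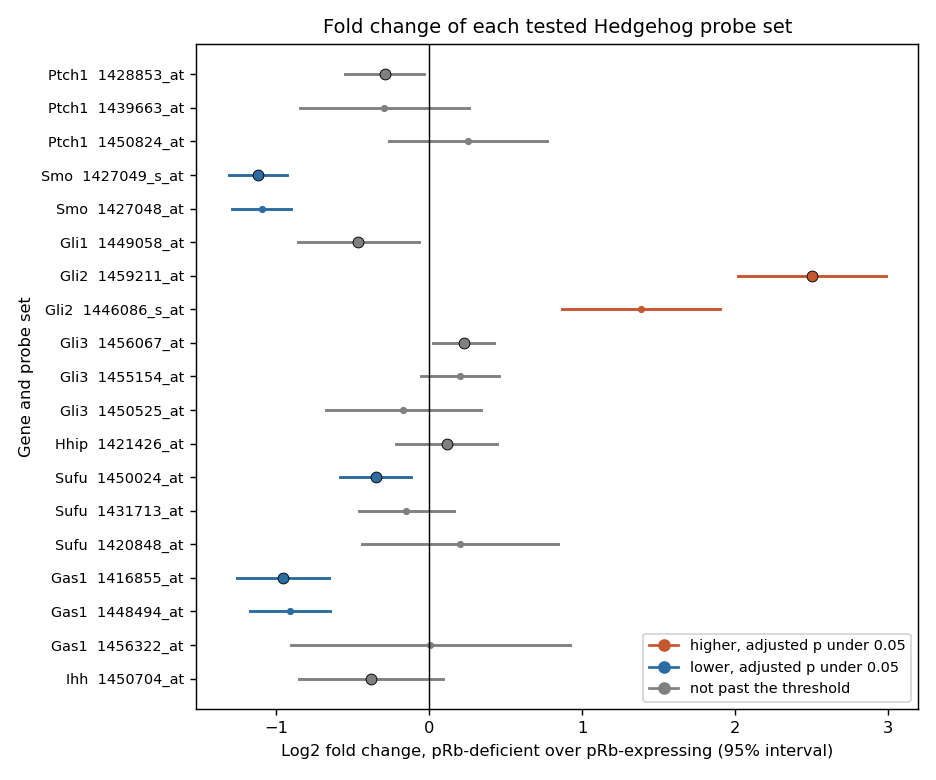
Log2 fold change, pRb-deficient over pRb-expressing, of the 19 tested probe sets with 95% intervals, coloured by whether the adjusted p was under 0.05. Both bright probe sets of Smo and both of Gas1 lie near −1. The Gli2 probe sets, dim in the pRb-expressing cultures, lie at 2.50 and 1.39. The dim probe sets of Ptch1, Hhip and Gas1 lie between −0.29 and 0.25.

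The changes were also read against the chromosome each gene lies on, since the median change differed between chromosomes. It was −0.50 on chromosome 1 (541 genes), which holds Gli2 and Ihh, −0.58 on chromosome 6 (481 genes), which holds Smo, and 0.33 on chromosome 13 (368 genes), which holds Ptch1, Gas1 and Gli3. It was 0.06 on chromosome 8, 0.13 on chromosome 10 and 0.12 on chromosome 19, which hold Hhip, Gli1 and Sufu. After subtraction Gli2 stood 3.00 above its chromosome, Gas1 1.28 below, Ptch1 0.62 below, Gli1 0.59 below, Smo 0.53 below and Sufu 0.46 below. Gli3, Hhip and Ihh differed from theirs by −0.10, 0.06 and 0.13. The part of these chromosome shifts in the members' changes was not tested.

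**Figure D3:**
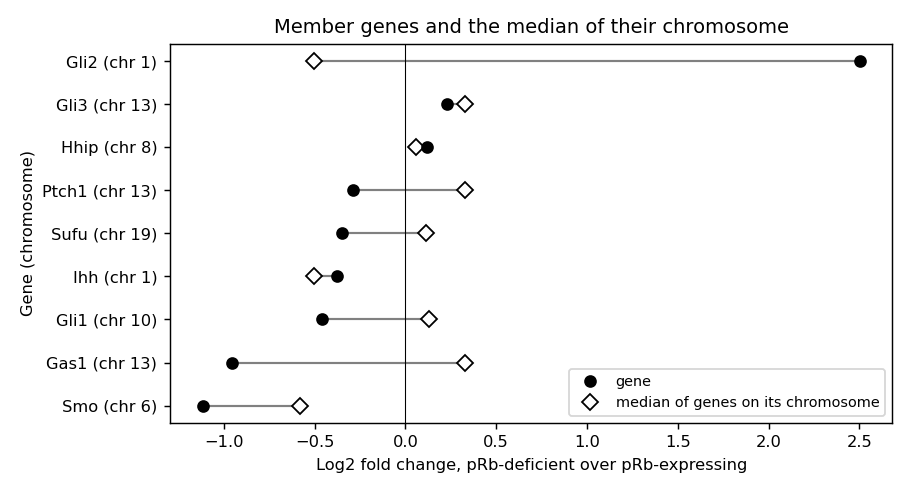
Log2 fold change of each of the 9 genes against the median log2 fold change of the genes on its chromosome. Gli2 lies far above its chromosome's median, and Gas1, Ptch1, Gli1, Smo and Sufu lie below theirs.

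The rest of the pathway was read from 5 lists of its parts. Over the 81 tested genes of these lists 9 were higher and 35 lower (54.3% called, against 41.9% of all genes). By direction 11.1% were higher and 43.2% lower, against 18.5% and 23.4% of all genes. With only probe sets of a mean signal of at least 100 tested, 57.9% of all genes were called. Under that filter 1 of 2 ligand, 6 of 10 coreceptor, 10 of 15 cytoplasmic, 18 of 29 cilium and 12 of 16 target genes passed. The 54.3% is from the wider filter and is not to be set against the 57.9%. Whether the lists exceed genes of like signal was not tested. The median log2 fold change was −0.36, against −0.09 over all genes. Of the ligand and ligand release genes 1 of 8 was lower and 0 were higher (12.5% called). The lower one was Disp1, which lets lipid-bearing ligand leave the cell, at 1074 ± 52.9 and 515 ± 160 (log2 fold change −1.11, adjusted p = 0.00856), and with its chromosome's median taken off the call was lost, at −0.61 (adjusted p = 0.0833).

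Of the coreceptor and membrane genes 2 of 11 were higher and 4 lower (54.5% called, against 41.9% of all genes). With chromosome medians taken off 3 were higher and 3 lower, and likewise without pRb-expressing culture 3. Evc and Evc2, whose proteins sit together at the base of the cilium and relay the signal from Smoothened, fell from 833 ± 23.2 to 571 ± 51.3 and from 1110 ± 170 to 692 ± 96.0 (log2 fold changes −0.55 and −0.68, adjusted p = 0.00363 and 0.0115). Efcab7, which anchors that pair, rose from 243 ± 21.6 to 711 ± 93.4 (log2 fold change 1.55, adjusted p = 0.000179). Mgrn1, a ubiquitin ligase that lowers Smoothened at the cell surface, fell by 0.36 on the log2 scale (adjusted p = 0.00907), but its direction turned to 0.073 (adjusted p = 0.491) with chromosome medians taken off.

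Of the cytoplasmic regulators 2 of 16 were higher and 8 lower (62.5% called, against 41.9% of all genes). With chromosome medians taken off 4 were higher and 3 lower, so the list's direction depended on that setting. Leaving out pRb-expressing culture 1 or pRb-deficient culture 2 lowered the 10 calls to 6. In these fits the share of all genes called fell as well, from 41.9% to 34.9% and 34.2%. Arrb1, an arrestin that helps carry Smoothened into the cilium, fell from 232 ± 29.4 to 55.9 ± 9.31 (log2 fold change −2.06, adjusted p = 0.000383). Dyrk2, a kinase that marks GLI proteins for breakdown, rose from 1628 ± 200 to 3069 ± 199 (log2 fold change 0.92, adjusted p = 0.000623). Numb, which helps remove Gli1 protein, was higher by 0.50 (adjusted p = 0.00152), and Cul3, part of the ligase that degrades GLI proteins, fell by 0.43 (adjusted p = 0.00148) but stood at 0.077 (adjusted p = 0.364) against its chromosome.

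Of the primary cilium genes 2 of 29 were higher and 14 lower, with a median log2 fold change of −0.39. This is 55.2% called, against 41.9% of all genes. When only mean signals of at least 100 were tested, 18 of the 29 passed, 3 higher and 15 lower. Of all genes 57.9% were called under that filter. Over all genes 18.5% were higher and 23.4% lower. Kifap3, a subunit of the kinesin that carries cargo up the cilium, fell from 2918 ± 53.6 to 1373 ± 120 (log2 fold change −1.09, adjusted p = 9.01e-05). Cc2d2a, of the cilium's transition zone, fell from 817 ± 38.8 to 327 ± 27.2 (log2 fold change −1.33, adjusted p = 0.0001). Tulp3, an adaptor that brings membrane proteins into the cilium, and Ttc21b, of the complex for return transport, fell by 0.96 and 0.90 on the log2 scale (adjusted p = 0.000166 and 0.000207). With chromosome medians taken off, Kifap3 stood at −0.59 (limma adjusted p = 0.00159) and Tulp3 at −0.37 (limma adjusted p = 0.0124). Ttc21b then stood at −0.58, while the fall of Cc2d2a was larger, at −1.59.

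Of the target genes, known to respond to Hedgehog signaling in other tissues and to other pathways too, 3 of 17 were higher and 8 lower (64.7% called). Over all genes 41.9% were called, 18.5% higher and 23.4% lower. Members of the list moved far in both directions. Fst, which binds activins, fell from 7073 ± 55.9 to 658 ± 47.4, 10.8-fold lower (log2 fold change −3.43, adjusted p = 1.44e-06). Grem1, a BMP antagonist, rose from 153 ± 27.2 to 4517 ± 1741, 28.1-fold higher on geometric means (log2 fold change 4.81, adjusted p = 5.54e-05), with 5922.6, 5057.4 and 2569.9 in the pRb-deficient cultures 1, 2 and 3. Ccnd2, a cyclin of the G1 phase, went from 11122 ± 492 to 3847 ± 656 (log2 fold change −1.54, adjusted p = 0.000127). Snai1, a repressor of epithelial genes, went from 937 ± 165 to 306 ± 42.8 (log2 fold change −1.61, adjusted p = 0.000339).

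**Figure D4:**
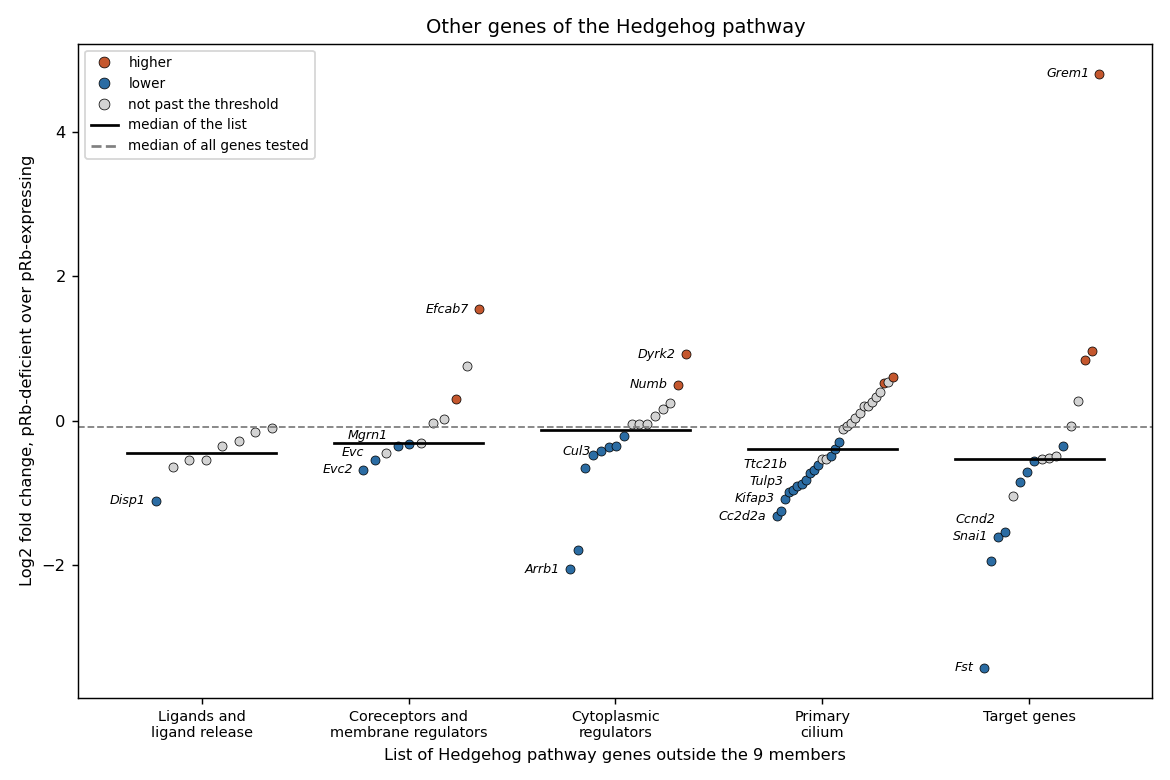
Log2 fold change of each tested gene of the 5 Hedgehog pathway lists, with the list's median as a bar and the median of all genes (−0.09) as a dashed line. The list medians lie between −0.54 (targets) and −0.13 (cytoplasmic regulators), and Grem1 and Fst mark the 2 ends of the target list.

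As a description over the 6 arrays, the genes whose floored log2 signals ran closest to Gli1 were Trmt6, Nfatc3, Tex10, Nle1 and Sirt7, with Pearson r of 0.997 to 0.999 among 10168 genes. Those closest to Ptch1 were Bmpr2, Slc9a8, Rmdn2, Zfp266 and Ripor1, with r of 0.987 to 0.998 among 10167 genes. The 6 points fall into the 2 groups and share the scaling of the arrays.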

How the data were processed

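RNA of 3 pRb-expressing and 3 pRb-deficient MC3T3 cultures was hybridized to 1 array each. Array intensities were deposited by the authors as linear MAS5 signals, which their methods scale to a trimmed mean of 500. Affymetrix Expression Console 1.1 is named in the processing notes of the submitters. No detection calls were used here. Array medians were 108 to 120, and on each array 46.1% to 48.5% of probe sets were at or below 100. The number of arrays limits the precision. Of 45101 probe sets, 64 controls and 6610 at or below 32 on every array were left out. For the other 38427, signals under 32 were set to 32 and log2 values entered limma 3.58.1 in R 4.3.3 (functions lmFit and eBayes, with an intensity trend), where pRb status was the sole term and left 4 residual degrees of freedom. Two-sided p-values were adjusted after Benjamini and Hochberg over all probe sets tested. A gene given by its brightest probe set kept the adjusted p of that probe set. Only the setting with the mean of all probe sets of a gene was adjusted over genes. Names and chromosomes come from RefSeq (GRCm38.p6) for 34741 of 34945 probe sets with 1 symbol. Means are given ± SD of signals, and fold changes ± SE.

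The genes, lists and tests were chosen with earlier results of these data known. The text names all 9 members, Rb1, up to 4 genes with the lowest adjusted p per pathway list among those past 0.05, and the 5 genes closest to Gli1 and to Ptch1 over the arrays. Genes of the lists without a probe set of 1 symbol were not analysed here. Alternatives were other floors, filters, scalings, weights and tests, chromosome medians taken off, a replicate block, and each culture left out.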

Additional observations from a re-analysis of the deposited data

How the results depend on the processing

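The falls of Smo and Gas1 and the rise of Gli2 kept their direction under all settings, and their calls under all but the exact Wilcoxon test and, for Gas1, the 2-fold minimum. For Gli2 this says less than for the bright Smo and Gas1. Leaving out any pRb-expressing culture gave 2.50 for Gli2 each time, because all these values were set to 32. Those fits could not have changed its value. The size for Gli2 ran from 0.86 with a floor of 100 to 3.25 without a floor, with 1.94 for the mean of its probe sets. Under the Wilcoxon test 0 of 16308 genes passed (0 with an unadjusted p under 0.05, since 0.10 is the lowest possible), so every count of calls was 0 and Smo (−1.12), Gli2 (2.50), Gas1 (−0.95), Sufu (−0.35) and Rb1 (−3.09) lost their calls (adjusted p = 0.217). With a minimum change of 2-fold the counts were 4 member probe sets, 2 member genes, 1 coreceptor gene, 2 cytoplasmic, 3 cilium and 5 target genes. Of all genes 15.6% passed with that minimum. Sufu (−0.35) and Gas1 (−0.95) dropped out. Array quality weights raised the counts to 12 member probe sets, 8 member genes and 5 ligand genes, with Ptch1 at −0.28, Gli1 at −0.50, Gli3 at 0.22 and Ihh at −0.52 now past the threshold. These weights were estimated from 6 arrays, and 56.4% of all genes passed with them. Ligand genes also came to 2 with no floor, with a pseudocount of 32 and without the intensity trend. Leaving out 1 culture gave 1 to 2 ligand genes, 6 to 10 cytoplasmic genes, 0.18 to 0.28 for Gli3 and −0.42 to −0.29 for Sufu. Of all genes 34.2% to 42.6% passed in these fits. Leaving out 1 culture turned the sign of dim or uncalled probe sets, which ran from −0.28 to 0.043 (Gli3 1450525_at), −0.0076 to 0.43 (Sufu 1420848_at) and −0.40 to 0.29 (Gas1 1456322_at, −0.18 without pRb-deficient culture 2). Taking off chromosome medians gave Ptch1 −0.62 and Gli1 −0.59 (both past the threshold), and turned Gli3 (−0.10), Ihh (0.13), Mgrn1 (0.073), Cul3 (0.077), Ptch1 1450824_at (−0.075), Gli3 1455154_at (−0.13) and Gas1 1456322_at (−0.32). Gli1 also passed with a floor of 100 (−0.39), which set its pRb-deficient values equal. At −0.46 it passed without the dim filter, without the trend and with the mean of all probe sets. Gli3 passed with median centring (0.29). Sufu lost its call without the trend (−0.35) and with the mean of all probe sets (−0.10). That mean also gave 6 calls in the cytoplasmic list, which does not hold Sufu. The cause of these moves was not tested.

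Same-numbered cultures did not deviate together (correlations 0.023, −0.034 and 0.057), and only number 3 matched its own number best, so the numbers were not taken as pairs. With the replicate block 6356 genes passed in place of 6829, and of the members Sufu lost its call (−0.35, adjusted p = 0.0525). Signals near 32, as for Hhip, carry no order.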
